A study of Mus musculus with 30 samples.

Results

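Class 2 Bookmarked peaks are 1216 regions bound by Esrrb in mouse embryonic stem (ES) cells, 8.35% of the 14559 peaks in the authors' deposited peak table. They were chosen by the authors' class column alone, as every peak that the table assigns to class 2. The table sorts its peaks into 5 classes and names classes 1 (450 peaks), 2 and 3 (314 peaks) Bookmarked, and classes 4 (6621 peaks) and 5 (5958 peaks) Lost. No source used here gives the rule behind the classes. The classes may have been selected on the peak heights of these same libraries, so heights and widths are described below without a test.

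Esrrb was profiled by ChIP-seq in 12 libraries of serum and LIF cultures of strain 129/Ola. EKOiE, an ES line without endogenous Esrrb and with an Esrrb transgene switched on by doxycycline (DOX), gave replicates 1, 3 and 4 of asynchronous cells (called interphase here, although a share of such cells is mitotic) and of mitotic cells obtained by shake-off, all with DOX. Replicate 2 of both groups came from wild-type E14Tg2a cells, which the labels also list under DOX, and 2 libraries of each state came from EKOiE after 48 h without DOX. RNA-seq came from 18 libraries of EKOiE-Ccna-Gfp, the same kind of line with a Ccna2-Gfp cell cycle reporter, sorted by phase (early G1, late G1, G2) and by DOX state, present or withdrawn for 24 h, with 3 libraries in each of 6 groups. The Esrrb of the DOX libraries other than replicate 2 is therefore transgenic. Withdrawal lasted for different times in the ChIP-seq and the RNA-seq.

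Esrrb is an orphan nuclear receptor of the estrogen-related family, which binds DNA as a single molecule at an extended response element, and is part of the network of factors that keeps mouse ES cells in naive pluripotency. During mitosis chromosomes condense, transcription is largely shut down and most transcription factors leave their sites. Mitotic bookmarking is the name for binding that persists on the mitotic chromosomes at a subset of sites.

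The element can be shown where a class 2 peak covers a transcription start, because promoter sequence was at hand for some of those genes. The start of 40 genes lay inside a class 2 peak, and 21 of these genes had a single entry in the RefSeq promoter table (GRCm38.p6). The core motif AAGGTCA, searched on both strands in the 250 bases before the start, was present in 5 of the 21 promoters (23.8%). It was present in 14 of 152 promoters whose start lay inside a Lost peak (9.21%) and in 4.05% of all 22862 promoters with a single entry. Starts inside class 1 and class 3 peaks gave 1 of 10 and 1 of 8. The longer form TCAAGGTCA, which contains the core, was present in 1 of the 21 (4.76%), that of Tmem191c. It was present in 3 of the 152 promoters at Lost peaks (1.97%) and in 0.341% of all. Promoters of 4 of the 5 genes with a core match are shown because their peaks covered the start in mm9. Capitals mark the core motif on either strand, and each sequence runs 5′ to 3′ on the strand of its gene. The fifth, Tmem191c, is not shown because its annotated span differs between the builds. The peaks are in mm9 and these sequences in GRCm38.p6, and the annotated gene spans differed by 0 to 271 bases between the builds, so a printed stretch may be shifted against the peak. A match is a description of these letters and not evidence of a site.
Ppp1cb promoter, chr5:32458720-32458969, + strand: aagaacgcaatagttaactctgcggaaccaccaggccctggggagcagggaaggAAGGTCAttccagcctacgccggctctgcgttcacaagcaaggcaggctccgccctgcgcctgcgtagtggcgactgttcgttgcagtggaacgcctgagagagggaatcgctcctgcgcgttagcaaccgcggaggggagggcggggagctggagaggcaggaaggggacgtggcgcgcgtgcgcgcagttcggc
Dhps promoter, chr8:85071507-85071756, + strand: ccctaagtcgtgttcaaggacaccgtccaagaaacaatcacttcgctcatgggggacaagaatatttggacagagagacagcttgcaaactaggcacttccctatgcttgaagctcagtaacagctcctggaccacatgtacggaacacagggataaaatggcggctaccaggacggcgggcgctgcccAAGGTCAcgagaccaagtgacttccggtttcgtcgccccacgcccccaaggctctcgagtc
Lrch1 promoter, chr14:74947878-74948127, - strand: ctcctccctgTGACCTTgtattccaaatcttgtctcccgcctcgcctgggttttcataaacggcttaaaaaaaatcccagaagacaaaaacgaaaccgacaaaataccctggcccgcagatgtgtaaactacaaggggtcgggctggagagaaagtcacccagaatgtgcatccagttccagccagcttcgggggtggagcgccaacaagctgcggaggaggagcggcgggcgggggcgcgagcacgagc
Got1 promoter, chr19:43524606-43524855, - strand: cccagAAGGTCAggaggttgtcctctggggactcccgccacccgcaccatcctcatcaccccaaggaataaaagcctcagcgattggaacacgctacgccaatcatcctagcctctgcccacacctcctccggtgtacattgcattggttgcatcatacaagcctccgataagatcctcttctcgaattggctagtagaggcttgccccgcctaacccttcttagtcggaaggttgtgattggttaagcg
In Ppp1cb, which encodes a catalytic subunit of protein phosphatase 1, the core began 196 bases before the start. It began 61 bases before the start of Dhps, the deoxyhypusine synthase gene. In Lrch1 and Got1, the latter encoding a cytosolic aspartate aminotransferase, it began 240 and 245 bases before the start, and in Lrch1 it lay on the opposite strand.

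Peak heights are log2 read densities, that is, reads per kb of peak for each M (mega) of library reads, so that a difference of 1 is a 2-fold difference in read density. The class 2 peak over the start of Ppp1cb had heights of 1.23, 2.37, 2.17 and 1.32 in the 4 interphase libraries with DOX and of 1.09, 0.57, -0.66 and 0.68 in the 4 mitosis libraries. At the Dhps start the interphase heights were 1.29, 1.54, 1.48 and 2.17 and the mitosis heights 0.27, 0.37, 0.22 and 0.89. The Got1 peak was at 1.31, 1.84, 1.48 and 2.64 in interphase and at 0.32, 1.00, 0.41 and 0.85 in mitosis. In each of these 3 peaks every interphase library lay above every mitosis library. The Lrch1 peak was at 0.36, 0.95, 1.37 and 2.60 in interphase and at -0.38, -0.08, -0.41 and 0.50 in mitosis, so its groups overlapped. After withdrawal the Dhps peak was at -1.71 and -0.86 in interphase and at -1.84 and -1.30 in mitosis, below all 8 libraries with DOX. The Got1 and Lrch1 peaks also lay below all libraries with DOX after withdrawal. The Ppp1cb peak did not: it was at -0.89 and -0.65 in interphase and at -1.48 and -1.04 in mitosis. Mitosis replicate 3 with DOX, at -0.66, was not above all of these.

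Over all 1216 class 2 peaks, height in mitosis was lower than in interphase but stood well above the height after withdrawal. The median class 2 height was 1.56, 2.43, 1.97 and 3.00 in interphase replicates 1 to 4 and 0.52, 0.52, 0.17 and 0.64 in mitosis replicates 1 to 4. These groups did not overlap. After withdrawal it was -2.16 and -0.97 in interphase and -2.48 and -1.09 in mitosis. The mean of the library medians was 2.24 ± 0.62 (SD, n = 4) in interphase, 0.47 ± 0.20 (SD, n = 4) in mitosis, -1.57 ± 0.85 (SD, n = 2) in interphase after withdrawal and -1.78 ± 0.98 (SD, n = 2) in mitosis after withdrawal. The wild-type replicate 2 fell within the range of the EKOiE replicates in both states.

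The ChIP-seq totals ran from 10.7 to 67.5 M reads. A class 2 peak held a median of 118 to 271 reads in the interphase libraries with DOX and 67 to 130 in the mitosis libraries with DOX. Withdrawn replicates 1 held only 8 and 5 reads per class 2 peak (interphase and mitosis), and withdrawn replicates 2 held 28 and 36. No read was found in 24 class 2 peaks of interphase withdrawn replicate 1 and in 60 of mitosis withdrawn replicate 1, and every class 2 peak had reads in the other 10 libraries. The 2 withdrawn libraries of each state therefore stand apart from each other in height, and heights after withdrawal rest on few reads in replicate 1. What sets them apart was not tested.

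**Figure D1:**
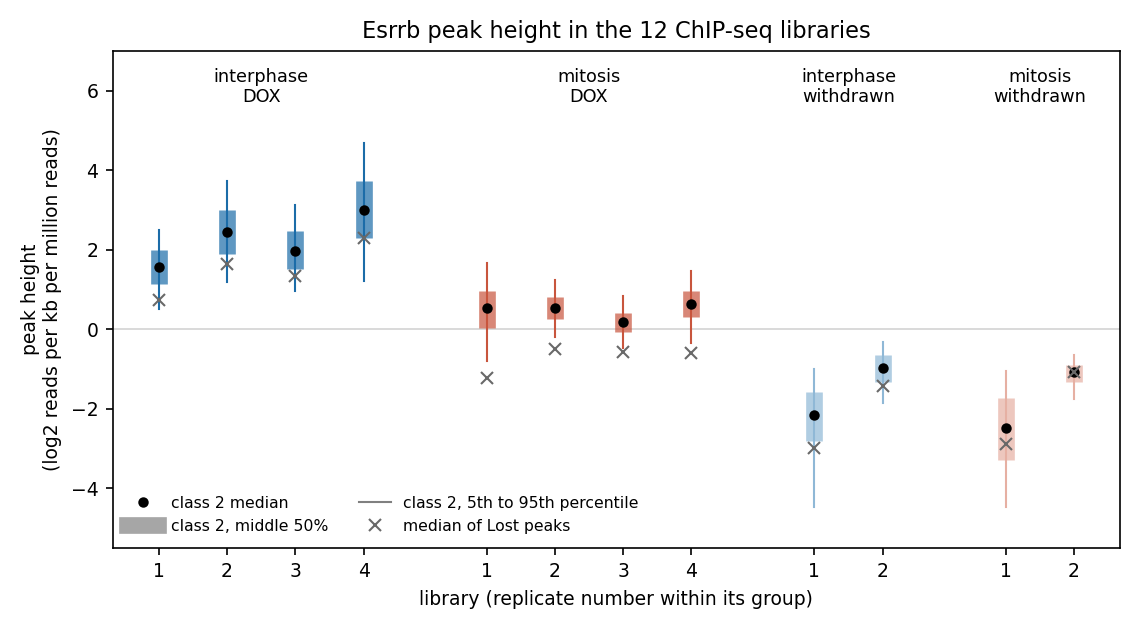
Peak height of class 2 (median and spread) and median height of Lost peaks in each of the 12 ChIP-seq libraries (log2 read density, on the authors' scaling). Class 2 medians lie between 1.56 and 3.00 in interphase with DOX, between 0.17 and 0.64 in mitosis with DOX and between -2.48 and -0.97 in the 4 withdrawn libraries.

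Per peak, the mean mitosis height minus the mean interphase height had a median of -1.79 over class 2, a density in mitosis of 0.289 times that in interphase. The middle 50% of the peaks lay between -2.28 and -1.28. The same median was -0.49 in class 1, -1.96 in class 3, -2.32 in Lost peaks and -2.26 over all peaks. Class 2 thus lay between classes 1 and 3. The direction rests on the authors' scaling to library reads: with each library centred on its median over all peaks, the difference was 0.33 in class 2, 1.63 in class 1, 0.16 in class 3 and -0.21 in Lost peaks. The classes kept that order. On the authors' scaling, in 1025 class 2 peaks (84.3%) all 4 interphase heights were above all 4 mitosis heights. This held for 88% of all peaks and for 25.1% of class 1, and no class 2 peak showed the reverse. With centred libraries it held for 75 class 2 peaks (6.17%) and 9.79% of all peaks, and the reverse for 308 class 2 peaks (25.3%) and 7.62% of all peaks. With DOX, class 2 peaks took 17.1% to 18.4% of the reads in all peaks in interphase libraries and 18.2% to 26.1% in mitosis libraries. After withdrawal they took 11.96% to 14.9%.

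Heights with DOX were also set against heights after withdrawal, in each state. In mitosis the height with DOX minus that after withdrawal had a median of 2.20 in class 2 (range 1.24 to 5.17), 1.85 in class 1, 1.64 in class 3, 1.21 in Lost peaks and 1.33 over all peaks. In interphase it was 3.83 in class 2 and 3.74 over all peaks. The class 2 medians were 1.52 in mitosis and 3.23 in interphase without withdrawn replicate 1, and 2.82 and 4.42 without withdrawn replicate 2. All 4 mitosis libraries with DOX were above both withdrawn ones in 1196 class 2 peaks (98.4%), 39.4% of Lost peaks and 47.4% of all peaks. In interphase the same held for 1212 class 2 peaks (99.7%) and for 99.4% of all peaks. The authors' class may have been set on these heights, so nothing is read from the shares.

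The deposited table also gives pooled heights, and the edge of class 2 is visible there. The lowest class 2 peak had a pooled mitosis difference between DOX and withdrawal of 0.97, and 3821 class 4 Lost peaks lay above that value. The pooled mitosis height with DOX ran from -0.89 to 2.27 in class 2 with a median of 0.42. In class 4 the median was -0.12 and the highest value 0.75. The classes therefore overlapped on each of these measures taken alone.

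Class 2 peaks differed widely among themselves. The tallest in mitosis, chr5:139449901-139451550 (mm9), lay 20181.5 bp downstream of the start of Pdgfa, which encodes a platelet-derived growth factor chain, and outside its gene body. It had heights of 3.37, 4.27, 4.03 and 5.71 in interphase and of 3.10, 2.87, 2.38 and 3.28 in mitosis, from 1000, 1216, 981 and 923 reads and from 774, 813, 426 and 543 reads. After withdrawal it was at -1.87 and -0.28 in interphase and at -3.35 and -0.64 in mitosis. It ranked first of 1216 in both states, and its interphase and mitosis ranges did not overlap. Second in mitosis came a peak inside Capn2, a calpain protease gene, 16238.5 bp from its start. It had mean heights of 3.99 in interphase and 2.41 in mitosis. The remaining 8 of the 10 tallest in mitosis had Glrx3, Ntrk2, Tnik, Lace1, Tmx3, Pcsk5, Lrpprc and Gpr123 as the nearest gene, at 13546.5 to 332996 bp from the start.

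The order of the class 2 peaks was compared within and between the states. Spearman's rho over the 1216 heights was 0.622 to 0.912 between pairs of interphase libraries with DOX and 0.420 to 0.691 between pairs of mitosis libraries with DOX. Between interphase and mitosis libraries of the same number it was 0.137 to 0.489, a range below that of the interphase pairs that overlaps that of the mitosis pairs. Between the group means it was 0.302, against -0.002 in class 1, 0.224 in class 3, 0.413 in class 4 and 0.518 in class 5. Over all peaks the group means gave 0.660, above the value of every single class. These are correlations across peaks that share libraries and depth, and peaks are not independent replicates.

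**Figure D2:**
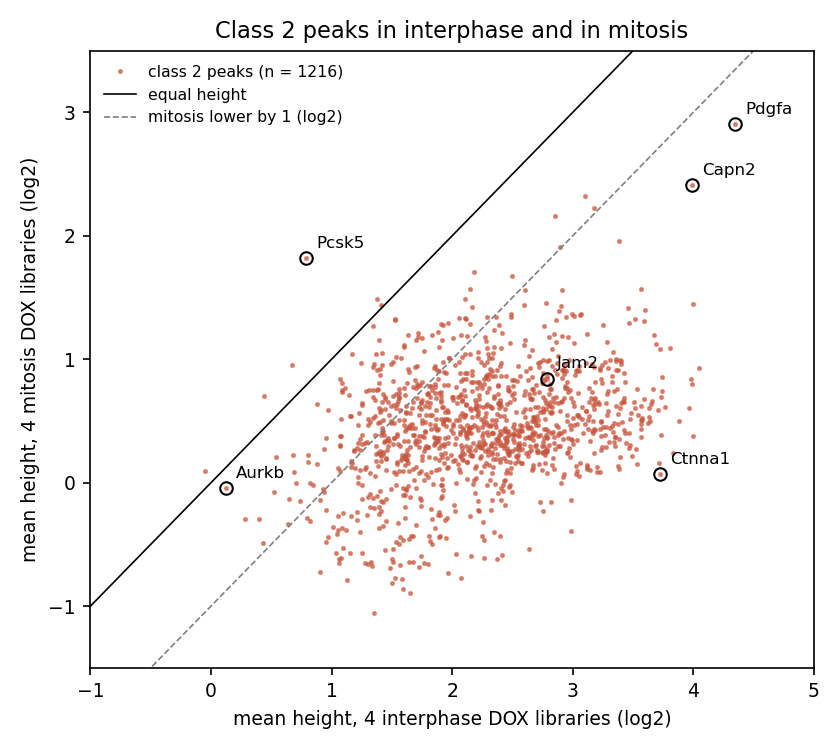
Mean interphase height against mean mitosis height with DOX (log2 read density) for each of the 1216 class 2 peaks, with lines at equal height and at a height lower by 1 in mitosis. Most points lie below the lower line, the Pdgfa peak is the tallest in both states, and Pcsk5 lies above the line of equal height.

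At the extremes, chosen after their values were seen, the peak nearest Ctnna1 (alpha-catenin) had the lowest mitosis minus interphase difference, -3.66. Peaks nearest Sod1 and Tacc2 followed at -3.62 and -3.59. In all, 6 class 2 peaks (0.493%) had a mean mitosis height above the interphase mean, against 0.728% of all peaks and 22% of class 1. With these included, 172 class 2 peaks (14.1%) had a mitosis mean that was not lower by 1 or more. This held for 4.79% of all peaks, 84.7% of class 1 and 6.69% of class 3. The largest class 2 excess was 1.03, at a peak inside Pcsk5, a proprotein convertase gene. Its heights were 1.43, 2.12, 1.86 and -2.27 in interphase and 2.83, 1.48, 1.01 and 1.96 in mitosis. The excess rests on interphase replicate 4, where the peak held 2 reads against 119 to 150 in the other 3, and without that library the groups overlapped. The peak nearest Aurkb, the kinase of the chromosomal passenger complex, was low, and its interphase and mitosis libraries overlapped. It was at -0.19, -0.06, 0.49 and 0.24 in interphase and at -0.02, -0.02, -0.20 and 0.06 in mitosis.

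Class 2 peaks were wide. The median width was 1350 bp (quartiles 1050 and 1687.5, range 600 to 4950), against 1200 bp in class 1, 900 bp in class 3, 750 bp in Lost peaks and 900 bp over all peaks. Of class 2, 185 peaks (15.2%) were at least 2 kb wide and 202 (16.6%) under 1 kb, whereas 7.08% and 57.8% of all peaks were. Lost peaks were not all narrow, since class 5 had a median of 1050 bp and class 4 one of 600 bp. The median mitosis minus interphase difference was -1.70 for class 2 peaks under 1 kb, -1.75 from 1 to 2 kb and -2.01 from 2 kb, and 0.42, 0.37 and 0.11 with each library centred on its median over all peaks. Spearman's rho of width was -0.0401 with the mean interphase height with DOX and -0.186 with the mean mitosis height with DOX, over the 1216 peaks. Width also depends on where peaks were divided, and 25 class 2 peaks (2.06%) directly abutted another class 2 peak, among them pairs at Atp5b and at Etv4.

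Most class 2 peaks lay away from transcription starts. The median distance from the peak centre to the nearest start in the exonic count table was 15484 bp (quartiles 3857 and 41552), against 20999.5 bp over all peaks, 21633.5 bp in Lost peaks, 27317 bp in class 1 and 14663 bp in class 3. Within 1 kb of a start lay 115 class 2 peaks (9.46%, against 7.98% of all peaks), and within 10 kb 497 (40.9%, against 33.3%). Beyond 100 kb lay 127 (10.4%, against 14.6%). Only 15 class 2 centres were within 500 bp of a start and 4 within 250 bp.

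Near starts the class 2 centres sat mostly on the upstream side. From 500 to 1500 bp, 126 lay upstream and 45 downstream. The other Bookmarked classes were split likewise, 43 and 18 in class 1 and 34 and 10 in class 3. Lost peaks were split into 409 and 453, with 293 and 260 in class 4 and 116 and 193 in class 5. Of the class 2 centres within 50 kb of a start, 527 (55.2%) were upstream of it, against 49.1% in class 1, 58.6% in class 3 and 44.7% in Lost peaks. The centre lay inside an annotated gene body for 448 class 2 peaks (36.8%), against 46.5% of Lost peaks and 45.3% of all peaks. A start lay inside 40 of the class 2 peaks (3.29%, against 2.19% of all). The median mitosis minus interphase difference was -1.49 for the 115 class 2 centres within 1 kb of a start, -1.81 from 1 to 10 kb, -1.89 from 10 to 50 kb and -1.84 farther away. With centred libraries these were 0.62, 0.30, 0.23 and 0.27.

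**Figure D3:**
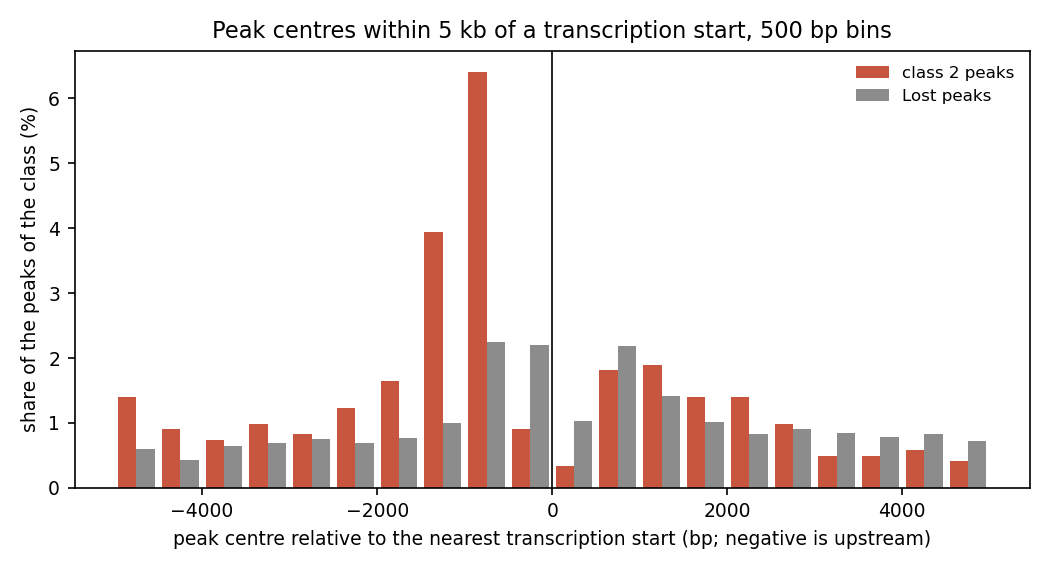
Share of class 2 and of Lost peaks by the distance of the peak centre to the nearest transcription start, in 500 bp bins within 5 kb on either side. Class 2 has more centres just upstream of the start than downstream, with 126 against 45 from 500 to 1500 bp, while Lost peaks are near evenly split. Classes 1 and 3, not plotted, have 43 against 18 and 34 against 10.

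Class 2 peaks often shared their neighbourhood with other Esrrb peaks. Chromosome 11 held 145 of them (11.9%, against 8.74% of all peaks) and chromosome X held 10 (0.822%, against 2.15%). Another Esrrb peak lay within 10 kb of 564 (46.4%, against 40.5% of all peaks), and another class 2 peak within 10 kb of 146 (12.01%). Assigning each class 2 peak to the nearest start within 50 kb gave 955 peaks and 855 genes. Of these genes 771 had 1 class 2 peak, 71 had 2 and 11 had 3. Sall4, a zinc finger factor of the core pluripotency network, had 4 (of 8 Esrrb peaks in all), and Wasf2, which encodes an actin regulator of the WAVE complex, had 5 (of 10). A Lost peak was nearest to 492 of the 855 genes as well (57.5% of them, and 9.02% of the genes nearest Lost peaks), which leaves a response of such genes assignable to neither class.

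Esrrb mRNA was lower after withdrawal in every phase, though far from 0, and the RNA-seq libraries held 11.1 to 31.8 M exonic counts. In early G1 Esrrb was at 242 ± 37.8 counts per M (CPM, SD, n = 3) with DOX and at 162 ± 27.2 without it. The late G1 means were 317 ± 28.3 and 165 ± 7.21, and those of G2 273 ± 27.0 and 190 ± 6.67. The fall passed the test in late G1 (adjusted p = 0.00385) but not in early G1 (0.12) or G2 (0.0699) by edgeR's quasi-likelihood test with Benjamini-Hochberg (BH) adjustment. A fit that blocked on replicate gave 0.000395, 0.0138 and 0.0123. Reads of the transgene and of what remains of the disrupted gene cannot be told apart in the counts. All 8 ES cell markers were above 1 CPM at the median, while the summed level was 3.81 to 10.8 CPM for primitive endoderm, 2.45 to 7.22 CPM for trophoblast (Elf5 at 0 in 10 of 18 libraries) and 11.2 to 22.8 CPM for fibroblast markers. In bulk samples fewer cells of a type and less RNA per cell cannot be told apart.

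Of the 855 genes nearest a class 2 peak, 785 had enough exonic counts to be tested, and both falls and rises were found among them. Averaged over the 3 phases, 96 (12.2%) fell and 85 (10.8%) rose after withdrawal (edgeR, BH at 0.05). Over all 14092 genes tested 8.47% fell and 8.43% rose. Genes nearest a Lost peak fell in 12.4% and rose in 9.26% of cases, and genes nearest no peak in 6.37% and 7.92%. The class 2 shares were thus above those of all genes and near those of Lost-peak genes, a difference between sets that was not tested. The sets were not matched for level, with a median log2 CPM of 5.05 near class 2 peaks, 4.39 near Lost peaks and 4.35 over all genes. Of the 785 genes, 466 were also in the Lost-peak set. The median log2 change was -0.03 near class 2 peaks and 0.00 over all genes. Seen from the other side, 96 of all 1194 genes that fell (8.04%) and 85 of all 1188 that rose (7.15%) were nearest a class 2 peak, as were 5.57% of the genes tested.

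These counts depend on how the replicates are handled. Libraries of the same replicate number deviated together, and with the number as a block 181 class 2 genes fell and 170 rose, against 18% and 18% of all genes. The phases of one replicate are not independent, which the average treats them as. When counts were summed over the phases (3 libraries against 3), 2 class 2 genes fell (0.101% of all genes) and 0 rose (0.0539%) by edgeR. At an unadjusted p under 0.05, 77 were lower and 79 higher. These unadjusted counts are not set against all genes, so nothing is read from them. DESeq2 was run on the libraries of the average and not on the sums, and it called 109 falls and 107 rises (10.1% and 10.7% of all genes). Summed with the block, 71 fell and 72 rose, against 5.02% and 6.66% of all genes, and 62 and 59 of them were also called in the average.

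Single phases gave few calls without the block. In early G1, 2 class 2 genes fell (0.255%, against 0.121% of all genes), Jam2 and Ly6g6e, and 0 rose by edgeR (0.0426% of all genes). At an unadjusted p under 0.05 by edgeR, 44 of 785 were higher, against 626 of all 14092 genes. DESeq2 called 1 rise (0.326% of all genes). In late G1 7 fell (0.277% of all genes) and 1 rose (0.185%), Spry4. In G2 10 fell (0.632%) and 1 rose (0.341%), again Spry4. With the block, 43 fell and 22 rose in early G1 (2.2% and 1.83% of all genes), 60 and 50 in late G1 (4.24% and 4.8%) and 59 and 64 in G2 (5.44% and 5.77%). DESeq2 called 12 falls and 1 rise in early G1 (0.582% and 0.326% of all genes), 23 and 15 in late G1 (1.22% and 1.24%) and 31 and 22 in G2 (1.65% and 1.61%). Leaving out 1 library at a time left 1 to 2 falls in early G1, 2 to 3 in late G1 and 2 to 13 in G2, where the 13 came without withdrawn replicate 2 and each other library left out gave 2 to 6. Differences between the phases were not tested.

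Falls and rises occurred at every distance from a class 2 peak, and their shares are read against the 8.47% and 8.43% of all genes. Of 106 tested genes with the closest class 2 centre within 1 kb, 11 fell (10.4%) and 8 rose (7.55%). Of 335 at 1 to 10 kb, 35 fell (10.4%) and 37 rose (11.04%), and of 344 at 10 to 50 kb, 50 fell (14.5%) and 40 rose (11.6%). Among the 78 genes with at least 2 class 2 peaks 8 fell (10.3%) and 13 rose (16.7%). Genes with a Lost peak as well (466) fell in 69 (14.8%) and rose in 51 (10.9%) cases, and genes with no peak of another class (301) in 25 (8.31%) and 34 (11.3%). In all 9 withdrawn libraries 30 class 2 genes (3.82%) were below every DOX library and 26 (3.31%) above, against 1.5% and 1.55% of all genes.

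Intronic counts, which largely come from unspliced transcripts, showed more falls than rises. Of 748 class 2 genes tested, 33 (4.41%) fell and 17 (2.27%) rose on average over the phases by edgeR, against 1.62% and 1.95% of all genes. Genes nearest Lost peaks fell in 2.94% and rose in 2.43% of cases. With the block 99 fell and 75 rose (7.44% and 7.81% of all genes), and by DESeq2 42 and 27 (2.61% and 3.08%). Summed over phases without the block no class 2 gene was called by edgeR (0 fell and 0 rose). At an unadjusted p under 0.05, 54 were lower and 32 higher. These intronic counts are not set against all genes either, so nothing is read from them. Summed with the block, 34 fell and 18 rose (1.47% and 2.01% of all genes). The 17 rises became 4 to 11 without each of 11 libraries in turn. These were all DOX libraries of early and late G1, early G1 withdrawn replicates 1 and 3, late G1 withdrawn replicate 3, G2 withdrawn replicate 1 and G2 DOX replicate 2.

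The largest falls beside class 2 peaks began with Ly6g6e, a gene of the Ly6 family of surface proteins. Its only Esrrb peak, chr17:35213101-35214000 (mm9), covered the start of the gene on the + strand, with its centre 335.5 bp upstream. The peak was at 1.92, 2.64, 2.31 and 3.68 in interphase, at 0.31, 0.50, 0.01 and 0.65 in mitosis, at -3.58 and -0.79 in interphase after withdrawal and at -2.48 and -1.67 in mitosis after withdrawal. Both states with DOX were thus apart from each other and from all withdrawn libraries. The mRNA was at 22.01, 24.5 and 21.1 CPM in early G1 with DOX and at 7.22, 8.53 and 8.05 after withdrawal. Late G1 gave 20.9, 24.4 and 17.1 against 7.18, 8.13 and 6.401, and G2 gave 18.9, 25.9 and 22.1 against 6.17, 7.97 and 5.90. Ly6g6e was lower in all 9 withdrawn libraries than in any DOX library. It fell by 1.59 (SE 0.099) on the log2 scale on average over the phases (edgeR, adjusted p = 5.04e-08), and it was called with summed counts too.

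Tgm2, which encodes the protein cross-linking enzyme transglutaminase 2, fell by 1.22 (SE 0.163, adjusted p = 0.000159 by edgeR), from a median of 19.7 CPM (15.7 to 27.3) to 9.70 (4.68 to 11.3). Wnt7b, a Wnt ligand gene, fell by 1.13 (SE 0.115, adjusted p = 1.47e-05 by edgeR), from 13.1 CPM (10.2 to 16.5) to 6.25 (4.04 to 8.93). Neither gene's DOX and withdrawn libraries overlapped. Their class 2 peaks were distal, 37877.5 bp and 16874.5 bp from the start, with 2 and 4 Lost peaks also nearest the genes. At Tgm2 the peak was at 1.83, 2.39, 1.59 and 1.59 in interphase and at 1.51, 0.65, 0.30 and 1.26 in mitosis, a peak that kept more of its height in mitosis than the class 2 median.

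Jam2, a junctional adhesion molecule gene listed among the naive pluripotency genes, had 2 class 2 peaks and no other Esrrb peak. One lay 4341.5 bp upstream of the start, with mean heights of 3.54 in interphase and 0.76 in mitosis, and the other 5483.5 bp downstream, with 2.78 and 0.84. Jam2 was at 119, 115 and 145 CPM in early G1 with DOX and at 62.0, 81.1 and 51.6 after withdrawal. In G2 it was at 142, 145 and 143 CPM and then at 65.7, 81.9 and 58.8. It fell by 0.99 on average (SE 0.105, adjusted p = 1.79e-05 by edgeR), lower in 9 of 9 withdrawn libraries than in any with DOX.

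Csnk1e, which encodes casein kinase 1 epsilon, fell by 0.71 (adjusted p = 1.79e-05 by edgeR), from a median of 62.2 CPM (53.6 to 70.02) to 39.2 (26.9 to 41.5). Cdh3, the P-cadherin gene, fell by 0.80 from 67.4 CPM (46.3 to 73.3) to 35.4 (29.3 to 42.9), with a class 2 centre 1100.5 bp upstream of its start. Further falls of the 12 largest were Jdp2, a leucine zipper repressor gene (-1.12), Pramel6, of a family of related genes whose reads may be split (-1.06), the exporter gene Slc47a1 (-0.99), 2610034B18Rik (-0.92), the metallothionein gene Mt2 (-0.83) and Gm7325 (-0.80). Gm7325 was at the edge of the test (adjusted p = 0.0495 by edgeR) and lost its call without each of 14 libraries in turn. In 8 of the 12 the DOX and withdrawn libraries did not overlap.

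Introns of 8 of the 10 falls that could be tested also fell by edgeR, among them Wnt7b by 1.06 (adjusted p = 6.53e-05), Tgm2 by 0.98, Jdp2 by 0.87 and Csnk1e by 0.63. Those of Pramel6 (adjusted p = 0.0805) and 2610034B18Rik (0.762) did not pass. In summed counts 2 of the 12 falls, Ly6g6e and Wnt7b, were called without the block and 12 with it.

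Among the 12 largest rises beside class 2 peaks, Spry4 was the only one called within single phases by edgeR without the block. Spry4, a feedback inhibitor of FGF and ERK signalling, was at 23.4, 25.3 and 25.1 CPM in early G1 with DOX and at 40.8, 32.4 and 30.2 after withdrawal. In G2 it was at 26.0, 19.5 and 26.8 and then at 49.9, 34.5 and 43.3, with no overlap between the DOX and withdrawn libraries of the 3 phases. It rose by 0.69 on average (SE 0.091, adjusted p = 0.00014 by edgeR). It had 2 class 2 and 5 Lost peaks. Rreb1, a Ras-responsive zinc finger factor gene, rose by 0.80 (adjusted p = 0.000634 by edgeR), from 6.54 to 11.1 CPM in the 9 DOX libraries to 11.8 to 18.5 in the 9 withdrawn ones.

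Trp53, which encodes the p53 tumour suppressor, rose by 0.70 (adjusted p = 0.00339 by edgeR), from a median of 46.2 CPM (30.2 to 55.6) to 63.8 (52.6 to 100.1), and its groups overlapped. Withdrawn replicate 1 was at 87.5, 100.1 and 92.4 CPM in early G1, late G1 and G2. The other withdrawn libraries were at 52.6 to 68.3. The only Esrrb peak of Trp53 was of class 2, 2290.5 bp downstream of the start. Ino80, the ATPase of a chromatin remodeller, rose by 0.76. Further rises were Trerf1 (0.86), Bahcc1 (0.80), the forkhead factor gene Foxk1 (0.73), the exchange factor gene Dock6 (0.71), Wasf2 (0.68), the RNA-binding protein gene Hnrnpu (0.67) and Tcof1, a gene of ribosomal RNA transcription (0.65). In Trerf1, Bahcc1, Dock6, Wasf2 and Tcof1, as in Trp53, each library of withdrawn replicate 1 was above all other withdrawn libraries. Dock6 was at 115, 135 and 139 CPM there against 76.5 to 85.1, and Tcof1 at 167, 214 and 221 against 100.6 to 135.2. This did not hold in Foxk1, Hnrnpu, Ino80, Rreb1 or Spry4. In 8 of the 12 rises the DOX and withdrawn groups did not overlap. Only 2 of the 12, Rreb1 and Spry4, also rose in introns, where 8 of 10 falls had. Whether introns of falls and rises differ was not tested. All 12 rises were called with summed counts and the block and none without it, by edgeR.

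**Figure D4:**
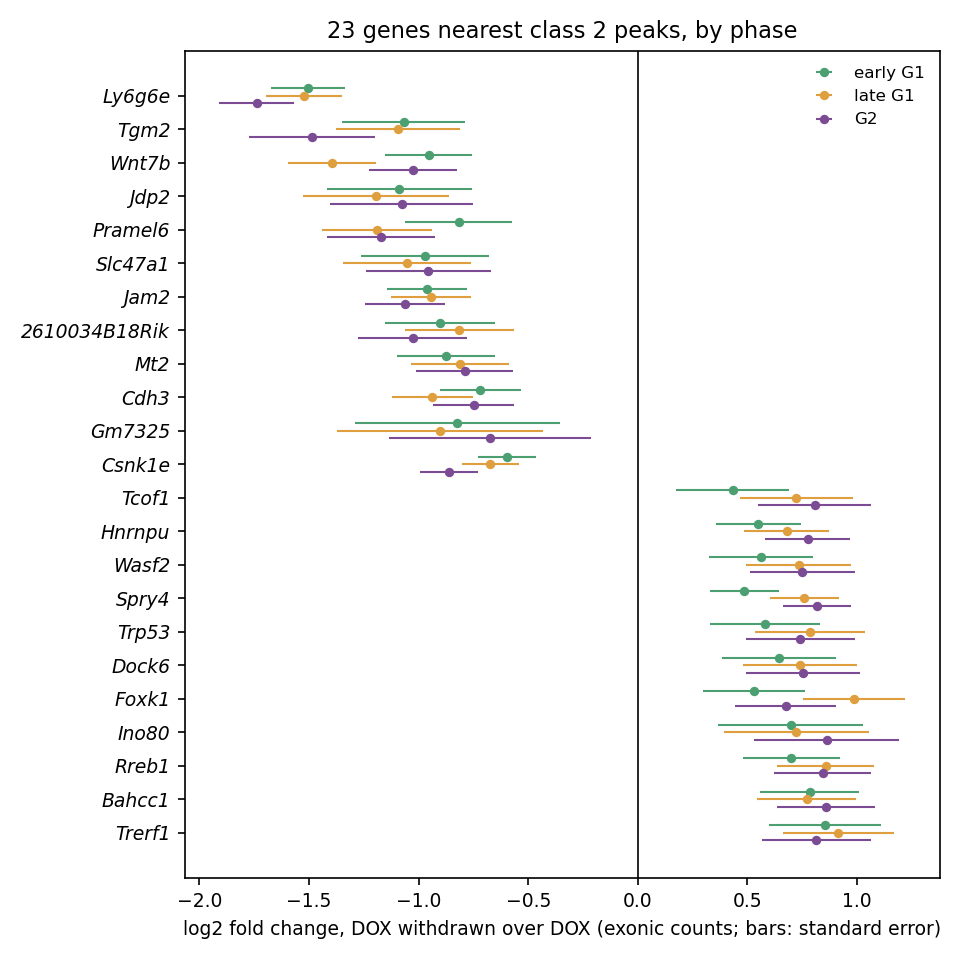
Log2 change after withdrawal in early G1, late G1 and G2 for 23 of the 24 largest falls and rises among genes nearest class 2 peaks, with bars of 1 SE from the edgeR fit. Ly6g6e shows the largest fall in each phase, and the sign of every gene is the same in all 3 phases because the selection asked for it.

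**Figure D5:**
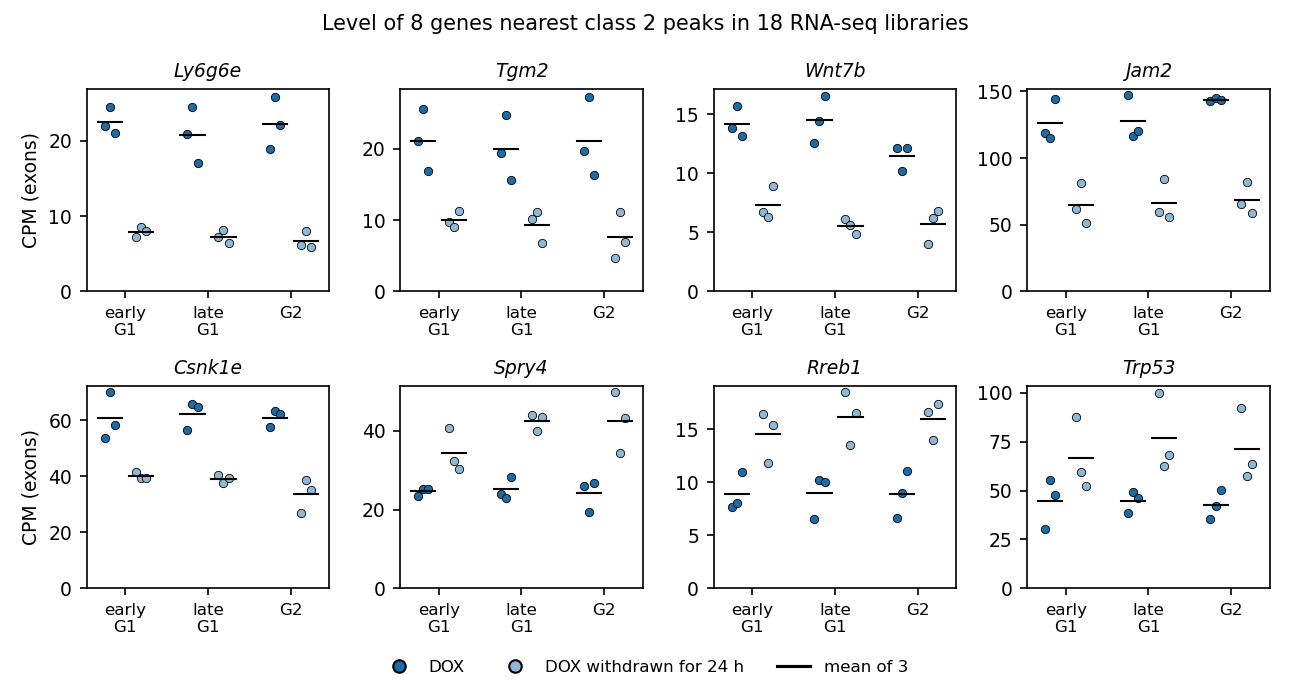
CPM in each of the 18 RNA-seq libraries for Ly6g6e, Tgm2, Wnt7b, Jam2, Csnk1e, Spry4, Rreb1 and Trp53, by phase and DOX state. The DOX and withdrawn points are separate for all of these genes but Trp53.

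Of the 40 genes whose start lay inside a class 2 peak 36 were tested, and 4 fell and 4 rose by edgeR, where 8.47% and 8.43% of all genes did. Besides Ly6g6e, the falls were Slc39a11, a zinc transporter gene (-0.53, SE 0.076), Sdhb, a subunit of succinate dehydrogenase (-0.31, SE 0.064), and Anxa6, an annexin gene (-0.23, SE 0.066). The rises were Phc1, of Polycomb complex 1 (0.42, SE 0.105), Ywhag, a 14-3-3 protein gene (0.39, SE 0.129), Ppp1cb (0.35, SE 0.093) and Dhps (0.34, SE 0.067). With summed counts and the block Anxa6 and Ywhag lost their calls (adjusted p = 0.12 and 0.113 by edgeR), and the other 6 were called. Ppp1cb and Dhps are among the promoters shown with the core motif. Lrch1 and Got1, shown with it too, had changes of -0.26 and -0.10 and did not pass the test. The peaks over these 40 starts had a median mitosis minus interphase difference of -1.55, from -2.33 to -0.28.

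Pluripotency genes had class 2 peaks in several lists, but few of them passed the test. Of 16 naive pluripotency genes, 7 were nearest a class 2 peak, and of these Jam2 and Tbx3 fell. Tbx3, a T-box factor gene, fell by 0.66 (adjusted p = 0.0234 by edgeR) and had 9 Lost peaks beside its class 2 peak at 49230.5 bp. The average changes of the others were 0.25 for Klf2, 0.09 for Klf5, -0.16 for Zfp42, -0.09 for Fbxo15 and 0.30 for Tet2. Over the whole list 5 of 16 fell and 0 rose by edgeR. Of 14 core network genes, 5 were nearest a class 2 peak and 1 rose, Sall4, by 0.42 (adjusted p = 0.00768 by edgeR), while 4 of the whole list rose. Utf1, Tdgf1, Zfp281 and Nodal did not pass. Of 14 formative and primed genes 3 had a class 2 peak, Otx2 and Etv4 among them. None of the 3 passed by edgeR, while 6 of the list rose.

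Targets and parts of LIF and STAT3 signalling, the pathway that maintains ES cells in culture, had class 2 peaks at 5 of 10 genes. The effector targets Pramel6 and Pim1, a kinase gene, fell. Pim1 fell by 0.26 (adjusted p = 0.0284 by edgeR). The receptor gene Lifr (0.21), the inhibitor gene Socs3 (-0.15) with its 3 class 2 peaks, and Bcl3 (0.22) did not pass. Over the list 4 fell and 0 rose. Of 15 genes of oxidative metabolism under ERR receptors 3 were nearest a class 2 peak, Esrra, Idh3a and Atp5b, and none of these passed. Over that list 5 of 14 tested genes fell and 1 rose. Esrra, which encodes a receptor of the same family as Esrrb, had a change of -0.01 with a class 2 centre 827.5 bp upstream. Of 10 mitosis and G2 genes Cdk1, Aurkb, Bub1 and Cdc20 had a class 2 peak, and their changes were -0.02, -0.03, 0.16 and -0.11, none past the test. Of all 10 genes of that list 1 fell and 0 rose by edgeR. Col4a1 of the primitive endoderm list and Eomes and Tfap2c of the trophoblast list did not pass either, and no fibroblast gene had a class 2 peak. Over those lists 1 fell and 1 rose of 10, 0 and 1 of 7, and 0 and 0 of 4 genes tested by edgeR. With the block 11 more listed genes passed, among them Klf2, Tet2, Utf1, Zfp281, Etv4, Lifr, Socs3, Bcl3, Idh3a and Tfap2c. Of those named here, Tet2 alone also passed with summed counts and the block (adjusted p = 0.0402 by edgeR), and the other 9 had values of 0.0706 to 0.331. With summed counts and the block Sall4 and Pim1 lost their call (adjusted p = 0.0612 and 0.0944 by edgeR). The lists were drawn up with earlier results of these data known, so their counts are descriptions.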

How the data were processed

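The class 2 peaks, the gene lists and the rules were chosen with earlier results of these data known. The deposited peak table gives heights in mm9 as log2 reads per kb and M reads (decimal commas). This unit was inferred from the numbers, which gave back whole reads in every library (tolerance 0.05 read, empty peaks set to 0.9 read). Widths move by 150 bp. The noco columns were taken as mitosis. The authors deposited raw read counts per gene, with exons and introns in separate tables, per the file headers. Without assigning roles, the submitters' processing notes list Bowtie, DESeq2, CASAVA 1.8 and mm9. No source used here gives the peak caller, the strand setting of the counting or the class rule.

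Each peak centre was assigned to the nearest start in the exonic table within 50 kb. A single edgeR model (version 4.0.16 under R 4.3.3) took in all 18 RNA-seq libraries as 6 groups, after filterByExpr and TMM scaling. It gave quasi-likelihood tests with Benjamini-Hochberg adjustment over all genes tested at 0.05. The code was checked on simulated libraries drawn independently. They lack the shared deviation of same-numbered libraries seen here, so that check does not cover it. The average is the mean of the 3 withdrawn minus DOX contrasts. DESeq2 1.42.0, no count filter, each library left out, a replicate block and, added after the data were seen, counts summed over phases were alternatives. The labels do not say that replicates are separate cultures, so p-values measure only the spread between these samples. Deviations of same-numbered libraries correlated by at least 0.188 (early G1), 0.161 (late G1) and 0.114 (G2). Numbers were therefore taken as pairs in the fits with the replicate block, while the main model has no block and ignores the pairing. For introns these correlations were 0.0916, 0.230 and 0.191, so the intronic pairing rests on the exonic check.

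Named genes were the 12 largest falls and rises among called class 2 genes with a mean log2 CPM of at least 2 and 1 sign in the 3 phases, and every listed gene nearest a class 2 peak. Named peaks were the 10 tallest in mitosis and those of the named falls and listed genes. Symbols written as dates (27) were restored through accessions, and 2377 blank intronic lines were dropped. Values of 2 genes that these rules name are not reported here. Heights and widths were described with no test, and no genome was at hand to read the sequence of distal peaks.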

Additional observations from a re-analysis of the deposited data

Results flagged for a closer look

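In 62 groups of 4 libraries, the heights of the named peaks were searched for a library far from the other 3, and 3 stood apart. Chance alone gives about 1 in 20 groups. At the class 2 peak inside Pcsk5, interphase replicate 4 had a height of -2.27 where the other 3 were at 1.43 to 2.12. At the peak inside Slc47a1, mitosis replicate 3 was at -0.0702 with the others at 0.38 to 0.46. At the peak nearest Csnk1e, mitosis replicate 3 was at -0.34 with the others at 0.23 to 0.33. Mitosis replicate 3 also had the lowest class 2 median of its group, 0.17 against 0.52 to 0.64.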

How the results depend on the processing

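Centring each library on its own median of all peaks reversed the class 2 mitosis minus interphase difference from -1.79 to 0.33 and moved the DOX minus withdrawn difference to 0.17 in interphase and 0.81 in mitosis, so the first direction depends on the scaling to library reads. Without each library in turn the 3 differences were -2.03 to -1.55, 3.23 to 4.42 and 1.52 to 2.82, and in the authors' pooled columns -1.45, 3.18 and 1.68. Measured from the peak edge, 207 class 2 peaks lay within 1 kb of a start. The replicate block gave 43 falls and 22 rises in early G1, 60 and 50 in late G1, 59 and 64 in G2, 181 and 170 on average and 99 and 75 in introns. DESeq2 gave 12 and 1, 23 and 15, 31 and 22 in the 3 phases and 27 rises in introns, and with no count filter 4 genes fell in late G1. Counts summed over phases gave 2 falls and 0 rises in exons and 0 and 0 in introns. A 10 kb window gave 46 falls and 45 rises, and peaks overlapping the gene body or start 53 and 47, where 8.47% and 8.43% of all genes fell and rose. These rules take in other sets of genes than the 50 kb window, and the 10 kb set is smaller. The counts are therefore not comparable with those of the 50 kb window. With 1 library left out, falls and rises were 1 to 2 and 0 to 0 in early G1, 2 to 3 and 0 to 0 in late G1, 2 to 13 and 0 to 4 in G2, 69 to 101 and 67 to 104 on average, and 24 to 38 and 4 to 17 in introns. The causes were not tested. The 12 rises kept their calls in all 216 such fits, and of the falls only Gm7325 lost its own, in 14. Tbx3 and Pim1 lost theirs in 12 fits together. Each fit kept the libraries of the same replicate number from the other phases, so it cannot show whether a call rests on 1 replicate. Depth limits the withdrawn replicates 1 most, with medians of 8 and 5 reads per class 2 peak.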
